A study of Mus musculus with 12 samples.

Results

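Transcripts of 10 genes of the mTORC1 pathway were measured in activated B cells with and without Pdap1, a phosphoprotein named for its association with PDGFA. The genes were the sestrins Sesn1, Sesn2 and Sesn3, Ddit4, the 4E-BP genes Eif4ebp1 and Eif4ebp2, the kinase and scaffold genes Mtor and Rptor, and the TSC genes Tsc1 and Tsc2. They were chosen by symbol, through their Ensembl identifiers in GENCODE M21 (GRCm38), out of 55536 features in the table of counts. All 10 had reads in each of the 12 libraries and passed the filter on low counts in every comparison. RNA-seq was done on B cells from the spleens of 6 C57BL/6 mice, 3 of them controls and 3 Pdap1-deficient, isolated by depletion with CD43 beads and cultured for 48 h in each of 2 ways, which gave 4 groups of 3 libraries. Control mice carried 1 copy of an allele that makes the Cre recombinase in B cells. Pdap1-deficient mice were Pdap1F/F and carried the same Cre allele, and the controls of the study included both littermates and mice of the inbred line. Cultures named LPS-IL-4 received LPS at 5 μg/ml and IL-4 at 5 ng/ml, a mix that drives switching to IgG1. Cultures named LPS-BAFF-TGFβ received 5 μg/ml LPS together with TGFβ (2 ng/ml) and BAFF (10 ng/ml), which drives switching to IgG2b. Mice of the study were 7 to 27 weeks old and of both sexes, and the conditional allele removes exon 2 only, so that reads from the other exons of Pdap1 can remain.

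mTORC1 is the protein kinase complex through which cells match protein synthesis and growth to their supply of amino acids, energy and growth factors. Its catalytic subunit is mTOR and its scaffold Raptor, and it acts on the lysosome, where Rag GTPases recruit it and Rheb switches it on. Sestrins, the leucine sensor among them, restrain the GATOR2 complex and with it the Rag branch, whereas Ddit4 (also called REDD1) releases the TSC complex, which shuts off Rheb. The 4E-BPs lie downstream: without phosphorylation by mTORC1 they hold the cap-binding protein eIF4E and block the start of translation. In B cells the pathway is known for supporting growth and antibody production after activation. The values below are transcript levels and carry no measurement of protein or phosphorylation.

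Total counts ranged from 9386667 to 15869143 with LPS-IL-4, and from 4579793 to 69500640 for the other stimulation. The LPS-BAFF-TGFβ library of control mouse 1 was the deepest, and the next deepest of that stimulation had 8303482 counts. Reads of Pdap1 were at 28.5% of the control mean in Pdap1-deficient cells with LPS-IL-4 and at 19.9% with LPS-BAFF-TGFβ, and all 6 Pdap1-deficient libraries (23.0 to 29.9 CPM) lay below all 6 controls (80.3 to 199 CPM). The log2 fold changes of Pdap1 were -1.82 (adjusted p = 3.52e-05 by edgeR) and -2.33 (adjusted p = 0.0929), and the second was -1.85 (adjusted p = 4.9e-06) without the deep control library, which had the highest Pdap1 level. Summed levels of 8 B cell markers were between 2718 and 3702 CPM in all libraries. Summed levels of 8 myeloid markers were between 9.08 and 28.4 CPM in the controls, and in the Pdap1-deficient libraries of mice 1, 2 and 3 they were 11.9, 312 and 38.0 CPM with LPS-IL-4 and 15.3, 549 and 80.1 CPM with LPS-BAFF-TGFβ. Of these markers Lyz2 was the highest, at 94.0 and 278 CPM in both libraries of mouse 2, and Mpo was at or near 0 throughout. T cell, NK cell and erythroid sums were 39.5 CPM at most. In bulk RNA, fewer cells of a type and less RNA per cell cannot be told apart.

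Levels are given as CPM with totals scaled by TMM over all 12 libraries, and comparisons between genes as RPKM, which is CPM per kilobase of all annotated exons of the gene. In control cells with LPS-IL-4, Mtor had the highest level, 14.0 ± 0.21 RPKM (SD, n = 3 here and for every mean below), followed by Eif4ebp2 at 12.5 ± 0.081 RPKM and Eif4ebp1 at 10.6 ± 1.7 RPKM. Sesn1 (6.36 ± 0.44 RPKM) and Tsc2 (6.29 ± 0.23 RPKM) lay closer together than their spread, and so did Sesn2 (5.43 ± 0.45 RPKM) with Sesn3 (5.10 ± 0.092 RPKM) and Rptor (4.54 ± 0.28 RPKM) with Tsc1 (4.43 ± 0.080 RPKM). Ddit4 was lowest, at 3.59 ± 0.83 RPKM. In Pdap1-deficient cells with the same stimulation the order began with Eif4ebp1 (25.9 ± 8.1 RPKM) and Sesn2 (17.1 ± 3.2 RPKM), ahead of Mtor (13.2 ± 0.90 RPKM), and Ddit4 followed Eif4ebp2 at 9.16 ± 1.5 RPKM. With LPS-BAFF-TGFβ, control cells had Sesn2 in the last place (3.26 ± 0.47 RPKM), and Pdap1-deficient cells had it at 13.7 ± 3.0 RPKM, within the spread of Mtor at 14.3 ± 0.71 RPKM. The length used for Sesn3 was 15.3 kb over all its transcripts, so a shorter form in use would make its RPKM too low.

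**Figure D1:**
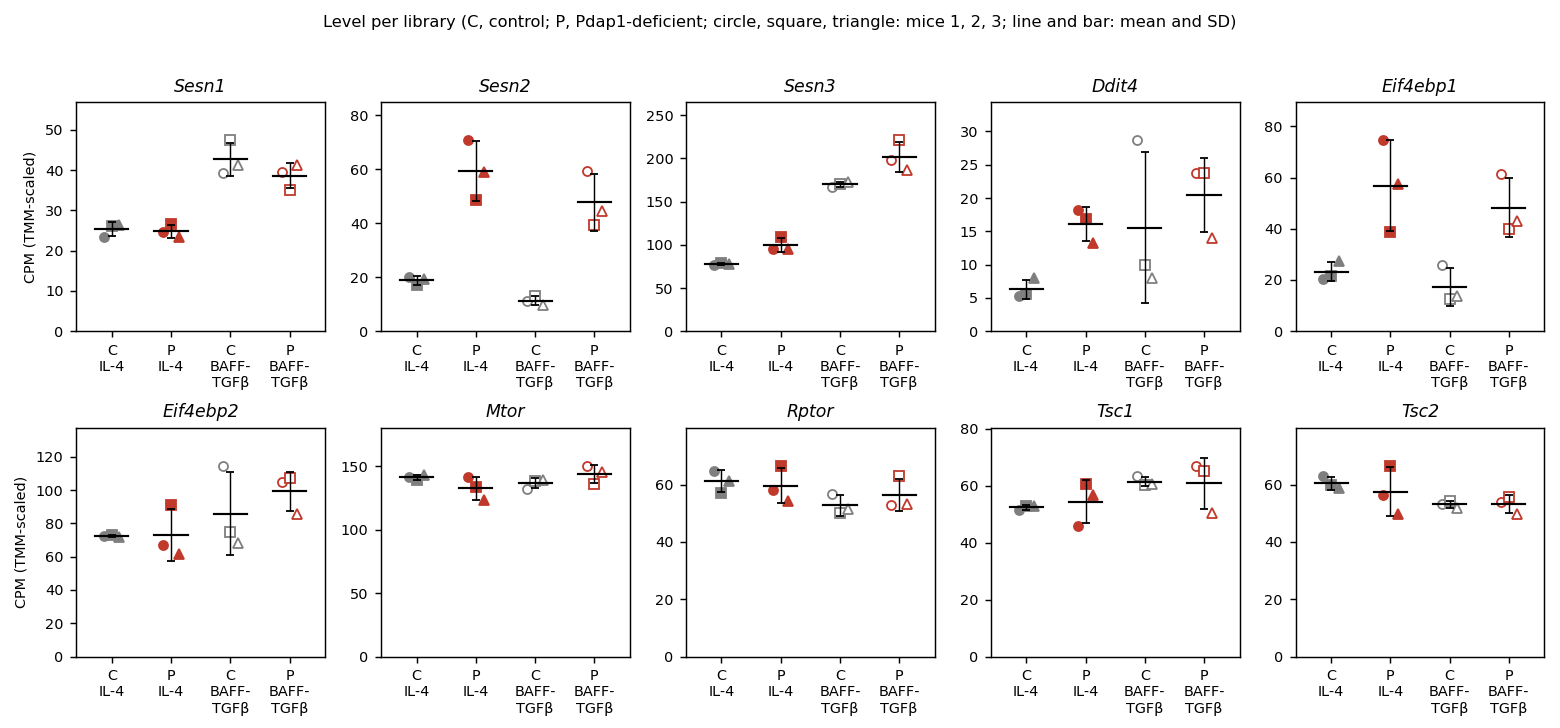
Level of each of the 10 genes in CPM (y axis, from 0) in the 4 groups on the x axis, with 1 point per library and the mean and SD over 3 mice. Libraries of the genotypes are apart in both stimulations for Sesn2, Sesn3 and Eif4ebp1, those of the stimulations are apart in both genotypes for Sesn1 and Sesn3, and Mtor lies between 123.4 and 150.5 CPM in all 12 libraries.

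The first comparison asked which of these genes differ with loss of Pdap1 in LPS-IL-4 cultures. Sesn2, Ddit4 and Eif4ebp1 were higher in Pdap1-deficient cells, by 3.15, 2.55 and 2.44 times in mean CPM. No member was lower past the threshold, and the transcripts of the complex itself, Mtor and Rptor, and of Tsc1 and Tsc2 had ratios between 0.940 and 1.04. Of the 10 genes 3 thus passed an adjusted p of 0.05 in edgeR's quasi-likelihood test, all 3 higher, where 4.92% of the 15074 genes tested passed, 2.79% higher and 2.12% lower. Libraries of the genotypes did not overlap for 4 of the 10 genes, against 31.2% of all genes. The median log2 fold change of the 10 genes was 0.025, and that of all genes 0.021.

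Sesn2 encodes the sestrin best known as a stress-induced transcript and leucine sensor. It lies on chr4:132492032-132510501 on the minus strand (GRCm38, ENSMUSG00000028893). With LPS-IL-4, control mice 1, 2 and 3 had 20.01, 17.1 and 19.5 CPM, and the Pdap1-deficient mice had 70.7, 48.5 and 58.9 CPM. The lowest Pdap1-deficient library was thus well above the highest control. The log2 fold change was 1.64 (SE 0.15, adjusted p = 0.000531 by edgeR's quasi-likelihood test). With LPS-BAFF-TGFβ, Sesn2 was at 11.2, 13.02 and 9.74 CPM in the controls and at 59.4, 39.2 and 44.7 CPM in Pdap1-deficient cells, which did not overlap either, and the log2 fold change was 2.09 (SE 0.19, adjusted p = 0.00155). Sesn2 kept its call in all 13 alternative settings of each stimulation, with log2 fold changes of 1.48 to 1.79 and of 1.90 to 2.19. In both stimulations mouse 1 was the highest and mouse 2 the lowest of the Pdap1-deficient mice. Mouse 2 was the mouse with the highest myeloid sums, and without its libraries the values were 1.79 (LPS-IL-4) and 2.18 (LPS-BAFF-TGFβ) on the log2 scale.

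Ddit4 encodes the REDD1 protein, an activator of the TSC complex known for its induction by hypoxia, glucocorticoids and several stresses. It lies on chr10:59949669-59951834, minus strand (ENSMUSG00000020108). With LPS-IL-4 the controls were at 5.35, 5.58 and 7.97 CPM and the Pdap1-deficient mice at 18.2, 16.8 and 13.2 CPM, with no overlap. Its log2 fold change was 1.34 (SE 0.20, adjusted p = 0.00659 by edgeR). These levels rest on 62 to 91 reads in the control libraries. The call was lost without control mouse 1 (1.23, adjusted p = 0.0533) or control mouse 2 (1.25, adjusted p = 0.0682) and with all 12 libraries in one fit (1.35, adjusted p = 0.115). With LPS-BAFF-TGFβ the controls were at 28.6, 9.98 and 8.04 CPM and the Pdap1-deficient mice at 23.7, 23.7 and 14.1 CPM. Only the deep library of control mouse 1 reached the range of the Pdap1-deficient mice, and it was above all 3 of them. The log2 fold change there was 0.36, with a 95% interval from -0.98 to 1.70 (adjusted p = 0.817 by edgeR), and without control mouse 1 it was 1.17 (adjusted p = 0.0515). Ddit4 was thus not called in this stimulation, and its interval holds the value seen with LPS-IL-4.

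The promoters of Sesn2 and Ddit4 are shown because these were the pair of upstream brakes that rose in LPS-IL-4 cultures. Each window runs from 250 bases before to 50 after the start of transcription in RefSeq (GRCm38.p6) and is written 5′ to 3′ along the gene. Capitals mark the letters CCAAT on either strand (ATTGG when read from the other one), the CCAAT box. RefSeq windows were found for 9 of the 10 genes, and Eif4ebp1 had no entry.
Sesn2 chr4:132510407-132510706, minus strand: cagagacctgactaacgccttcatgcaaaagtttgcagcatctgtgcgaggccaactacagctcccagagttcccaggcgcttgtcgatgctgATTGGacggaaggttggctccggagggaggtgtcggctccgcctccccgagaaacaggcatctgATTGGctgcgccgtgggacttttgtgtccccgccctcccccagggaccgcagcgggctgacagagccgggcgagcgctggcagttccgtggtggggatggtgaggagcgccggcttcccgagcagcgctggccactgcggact
Ddit4 chr10:59951721-59952020, minus strand: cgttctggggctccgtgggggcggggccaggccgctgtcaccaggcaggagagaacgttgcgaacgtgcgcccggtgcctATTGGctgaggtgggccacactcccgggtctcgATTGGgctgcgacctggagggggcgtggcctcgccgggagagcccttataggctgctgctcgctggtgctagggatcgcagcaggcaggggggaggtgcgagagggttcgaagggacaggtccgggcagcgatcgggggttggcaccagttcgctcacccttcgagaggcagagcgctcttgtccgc
In the Sesn2 window the box starts at -157 and -93, and in the Ddit4 window at -170 and -137, counted from the start of transcription. The CCAAT letters stand in 37.4% of 32851 mouse promoter windows of this length and in those of 5 of the members. Eif4ebp1, without a window, could not be searched. The C/EBP-ATF letters TGATGNAA (3.97% of all windows) and the CRE letters TGACGTCA (1.79%), each searched on both strands, were in none of the 10 windows of the other 9 genes. That says only that these letters are not within these 300 bases.

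Eif4ebp1 encodes 4E-BP1, a repressor of cap-dependent translation, and lies on chr8:27260329-27276674 on the plus strand (ENSMUSG00000031490). With LPS-IL-4 it was at 20.5, 21.7 and 27.6 CPM in the controls and at 74.5, 38.7 and 57.3 CPM in Pdap1-deficient mice. All 3 Pdap1-deficient libraries were higher, with mouse 1 and mouse 2 far apart. The log2 fold change was 1.28 (SE 0.24, adjusted p = 0.0297 by edgeR). The size held between 1.02 and 1.51 in all alternatives, whereas the call was lost without control mouse 1 (1.19, adjusted p = 0.143), control mouse 2 (1.23, adjusted p = 0.164), control mouse 3 (1.41, adjusted p = 0.111) or Pdap1-deficient mouse 3 (1.27, adjusted p = 0.109). Without Pdap1-deficient mouse 2, the one with high myeloid sums, it was 1.51 (adjusted p = 6.62e-05). With LPS-BAFF-TGFβ the controls were at 26.0, 12.5 and 13.6 CPM and the Pdap1-deficient mice at 61.3, 40.1 and 43.1 CPM, again without overlap. The log2 fold change of 1.45 (SE 0.31) missed the threshold (adjusted p = 0.176 by edgeR). Without the deep library of control mouse 1, the highest control, it was 1.88 and passed (adjusted p = 0.000294), and DESeq2 called it on all libraries (1.45, adjusted p = 6.05e-05). Its paralog Eif4ebp2 gave log2 fold changes of 0.0062 (95% interval -0.29 to 0.30) and 0.21 (-0.23 to 0.65). The LPS-IL-4 controls for Eif4ebp2 were within 71.9 and 72.8 CPM, and the Pdap1-deficient libraries, at 67.1, 90.9 and 61.5 CPM, lay on both sides of them.

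The other sestrins differed from Sesn2. Sesn1, known as a p53 and FoxO target, was at 23.3, 26.2 and 26.5 CPM in LPS-IL-4 controls and at 24.5, 26.5 and 23.4 CPM in Pdap1-deficient cells, so the genotypes overlapped. Its log2 fold changes by genotype were -0.038 (95% interval -0.29 to 0.21) and -0.13 (-0.42 to 0.16). Sesn3, the FoxO-induced sestrin, was at 76.4, 79.2 and 77.9 CPM in LPS-IL-4 controls and at 95.6, 109.6 and 95.4 CPM in Pdap1-deficient cells. These did not overlap, but the log2 fold change of 0.35 (SE 0.097) stood just outside the threshold (adjusted p = 0.0619 by edgeR). It was called with no filter on low counts (adjusted p = 0.0445), with all 12 libraries in one fit (adjusted p = 0.0471) and without Pdap1-deficient mouse 2 (0.30, adjusted p = 0.0271). With LPS-BAFF-TGFβ, Sesn3 was at 166.9, 170.7 and 172.7 CPM in the controls and at 198.2, 220.7 and 186.5 CPM in Pdap1-deficient cells, with a log2 fold change of 0.25 that was not called (adjusted p = 0.465).

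For the complex and its gate, the data set narrow limits. Mtor was at 141.7, 139.3 and 143.5 CPM in LPS-IL-4 controls and at 141.4, 134.1 and 123.4 CPM in Pdap1-deficient cells, with a log2 fold change of -0.099 (95% interval -0.31 to 0.11). Rptor gave -0.045 (-0.28 to 0.19), Tsc1 0.043 (-0.21 to 0.30) and Tsc2 -0.083 (-0.34 to 0.17). In LPS-BAFF-TGFβ cultures the log2 fold changes were 0.084 for Mtor (-0.14 to 0.31), 0.10 for Rptor (-0.18 to 0.38), -0.0088 for Tsc1 (-0.31 to 0.29) and 0.0072 for Tsc2 (-0.24 to 0.26). None of these 8 values was called in any alternative, and the intervals give the sizes of change that these data still allow. Tsc2 overlaps Pkd1, Mtor overlaps Angptl7 and Rptor overlaps Rptoros on the opposite strand, and the strand setting of the counting is not given in the sources used here, so reads in the shared stretches could have been left out or assigned to the neighbour. The Tsc2 counts (9639 over all libraries, beside 9327 for Pkd1) are the ones with the largest neighbour. On the same strand Sesn1 overlaps 9930024M15Rik, Eif4ebp2 overlaps Gm48086 and Sesn2 overlaps Gm12981. Gm12981 had 141 counts over all libraries, beside 4750 for Sesn2. Mtor (Gm23318 and Gm24002) and Rptor (Gm23663) overlap genes of small RNAs on the same strand.

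In the second genotype comparison, with LPS-BAFF-TGFβ, Sesn2 alone of the 10 genes was called, and it was higher. Of all 14079 genes tested 0.462% were called and 0.455% were called higher. Libraries of the genotypes were apart for Sesn2, Sesn3 and Eif4ebp1, which makes 3 of 10, against 18.9% of all genes. The median log2 fold change of the 10 genes was 0.16, beside 0.0066 for all genes.

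**Figure D2:**
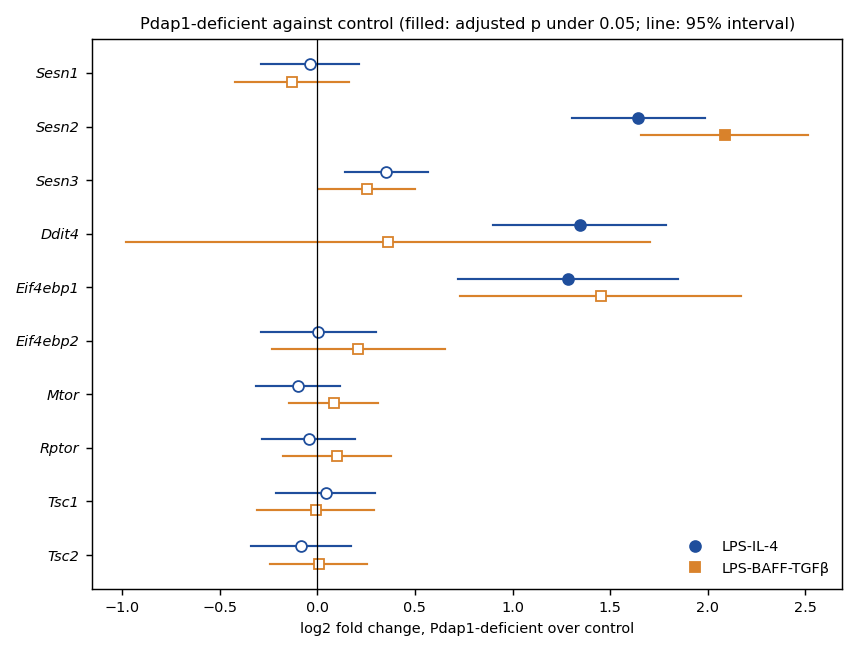
Log2 fold change of Pdap1-deficient over control cells (x axis) for the 10 genes (y axis) in the 2 stimulations, with 95% intervals from edgeR and filled symbols at an adjusted p under 0.05. Sesn2 lies at 1.64 and 2.09, Eif4ebp1 at 1.28 and 1.45, the interval of Ddit4 with LPS-BAFF-TGFβ runs from -0.98 to 1.70, and Mtor, Rptor, Tsc1 and Tsc2 lie within 0.10 of 0.

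Whether the genotype difference itself depended on the stimulation was tested as an interaction over all 12 libraries. None of the 10 genes passed (adjusted p of 0.983 or more), and 0% of 15794 genes were called by edgeR. At an unadjusted p under 0.05 there were 755 genes, and DESeq2 called 6. The difference of log2 fold changes was 0.43 for Sesn2 (95% interval -0.11 to 0.96), -1.01 for Ddit4 (-2.35 to 0.33) and 0.15 for Eif4ebp1 (-0.82 to 1.11), each with its genotype difference in LPS-BAFF-TGFβ minus that in LPS-IL-4. For Ddit4 it was -0.18 without the deep library of control mouse 1. This fit did not pair both cultures of a mouse. With the mouse as a block, Sesn2 gave 0.43, Ddit4 -0.81 and Eif4ebp1 0.23. None of these was called (adjusted p = 0.771, 0.894 and 0.949 by edgeR). A dependence on the stimulation was therefore not shown for any of them, and for Ddit4 and Eif4ebp1 the intervals are wide.

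The make-up of the sestrin and 4E-BP transcripts was computed per library, from the same values of Sesn2 and Eif4ebp1 as above. Per kilobase, Sesn2 made up 34.7%, 29.5% and 32.4% of the sestrin sum in LPS-IL-4 controls and 62.1%, 50.2% and 58.3% in Pdap1-deficient cells. With LPS-BAFF-TGFβ it made up 13.4%, 14.0% and 11.5% in the controls and 42.7%, 32.7% and 36.3% in Pdap1-deficient cells. The size of these shares depends on the exon lengths used. Before division by length, Sesn3 was above Sesn2 in LPS-IL-4 Pdap1-deficient cells, at 100 ± 8.1 against 59.4 ± 11 CPM. The sum of the 3 sestrins was 16.9 ± 0.42 RPKM in the controls and 29.9 ± 2.6 RPKM in Pdap1-deficient cells with LPS-IL-4, and 25.1 ± 1.5 and 36.7 ± 2.9 RPKM with LPS-BAFF-TGFβ. In the 4E-BPs, the share of Eif4ebp1 was 45.7% ± 4.0 in the controls and 66.1% ± 12 in Pdap1-deficient cells with LPS-IL-4, and 34.2% ± 3.4 and 55.8% ± 5.6 with LPS-BAFF-TGFβ. The summed 4E-BPs stood against Eif4e, the transcript of their binding partner, at a ratio of 0.569 ± 0.050 and 1.24 ± 0.16 RPKM per RPKM with LPS-IL-4, controls first. With LPS-BAFF-TGFβ that ratio was 1.07, 0.552 and 0.527 in the controls and 1.56, 1.47 and 1.09 in Pdap1-deficient cells, where the deep control library came close to the lowest Pdap1-deficient one. Against Mtor, whose level differed little, Sesn2 had 0.133 ± 0.0096 and 0.446 ± 0.074 reads per read with LPS-IL-4. In each of these shares, sums and ratios the 3 and 3 mice did not overlap. The exact two-sided permutation test then gives p = 0.1. That is the smallest it allows with 3 against 3, so none could pass 0.05. The ratio of Mtor to Rptor reads was 2.32 ± 0.13 and 2.24 ± 0.21 with LPS-IL-4 (p = 0.6, exact permutation test), and that of Tsc1 to Tsc2 reads 0.867 ± 0.046 and 0.956 ± 0.17 (p = 0.4, exact permutation test).

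**Figure D3:**
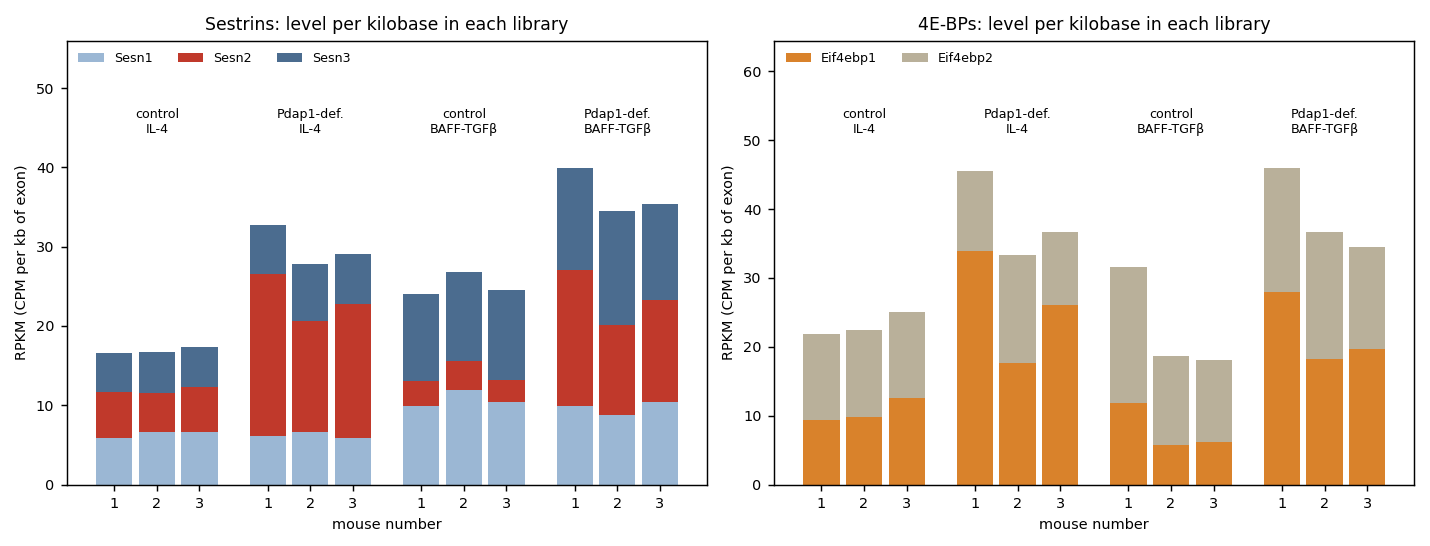
Stacked level per kilobase (RPKM, y axis from 0) of the sestrins (left) and the 4E-BPs (right) in each of the 12 libraries, ordered by group and mouse number on the x axis. The Sesn2 part is the larger one in Pdap1-deficient libraries, 17.1 against 5.43 RPKM in mean with LPS-IL-4, and so is the Eif4ebp1 part, 25.9 against 10.6 RPKM.

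The stimulations were then compared within each genotype, as cultures of the same mice. Sesn1 and Sesn3 were higher in LPS-BAFF-TGFβ cultures than in LPS-IL-4 cultures of both genotypes, and Sesn2 was lower in control cells. In control cells 3 of the 10 genes were called, 2 higher and 1 lower, where 19.3% of 14882 genes were called, 9.99% higher and 9.33% lower. Libraries of the stimulations were apart for 7 of 10 genes in the controls, against 37.8% of all genes. In Pdap1-deficient cells 2 of the 10 were called, both higher, where 11.5% of 14617 genes were called, 5.57% higher and 5.89% lower, and 2 of 10 were apart, against 29.2%. These comparisons share their libraries with those of the genotypes.

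Sesn3 made the larger step. It went from 76.4, 79.2 and 77.9 CPM with LPS-IL-4 to 166.9, 170.7 and 172.7 CPM with LPS-BAFF-TGFβ in the controls, a fold of 2.18, 2.15 and 2.22 in mice 1, 2 and 3. In Pdap1-deficient mice the folds were 2.07, 2.01 and 1.96. The log2 fold changes were 1.13 (SE 0.078, adjusted p = 4.06e-05 by edgeR) and 1.01 (SE 0.11, adjusted p = 0.000333). Sesn1 went from 23.3, 26.2 and 26.5 CPM to 39.3, 47.3 and 41.3 CPM in the controls and from 24.5, 26.5 and 23.4 CPM to 39.5, 35.1 and 41.3 CPM in Pdap1-deficient mice, without overlap in either genotype. Its log2 fold changes were 0.75 (SE 0.12, adjusted p = 0.00306) and 0.64 (SE 0.12, adjusted p = 0.00785). Both genes kept these calls in all 13 alternatives of each genotype. The promoters of Sesn1 and Sesn3 also held the letters of a CCAAT box, as did those of Sesn2, Ddit4 and Mtor, and the upstream window of Sesn1 had the FoxO letters TGTTTAC, 22 bases after the start, which stand in 3.65% of all windows. They are printed as the pair that rose with the stimulation, with both motifs in capitals.
Sesn1 chr10:41810324-41810623, plus strand: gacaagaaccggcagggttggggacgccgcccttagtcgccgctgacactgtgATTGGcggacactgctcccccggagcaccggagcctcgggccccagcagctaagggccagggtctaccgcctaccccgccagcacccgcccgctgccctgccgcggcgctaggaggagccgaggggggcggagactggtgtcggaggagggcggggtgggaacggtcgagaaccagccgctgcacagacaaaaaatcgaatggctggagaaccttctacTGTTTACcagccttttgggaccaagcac
Sesn3 chr9:14276051-14276350, plus strand: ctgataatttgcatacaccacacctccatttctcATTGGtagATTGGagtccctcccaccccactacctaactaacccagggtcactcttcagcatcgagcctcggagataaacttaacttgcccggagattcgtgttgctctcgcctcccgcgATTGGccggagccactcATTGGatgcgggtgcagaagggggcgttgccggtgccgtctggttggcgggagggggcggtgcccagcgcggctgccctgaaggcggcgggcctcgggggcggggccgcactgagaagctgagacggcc
The Sesn3 window holds the CCAAT letters 4 times, at -216, -208, -96 and -79, and the Sesn1 window once, at -197. No FoxO letters were found in the Sesn3 window.

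Sesn2 went the other way. In the controls it was lower with LPS-BAFF-TGFβ in 3 of 3 mice, by 0.559, 0.762 and 0.499 times, with a log2 fold change of -0.74 (SE 0.15, adjusted p = 0.0115 by edgeR). The call was lost without the LPS-IL-4 library of control mouse 1 (-0.70, adjusted p = 0.0640) or of control mouse 3 (-0.72, adjusted p = 0.0528). In Pdap1-deficient cells the ratios were 0.839, 0.808 and 0.758, again below 1 in 3 of 3 mice. The log2 fold change of -0.31 was not called when mice were not paired (adjusted p = 0.356 by edgeR), and it was called with the mouse as a block (-0.32, adjusted p = 0.0118). In control cells Sesn2 thus went down where Sesn1 and Sesn3 went up, and the sum of the sestrins had means of 16.9 and 25.1 RPKM.

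Among the other members, Eif4ebp2 was at 67.1, 90.9 and 61.5 CPM with LPS-IL-4 and at 104.8, 107.0 and 85.6 CPM with LPS-BAFF-TGFβ in Pdap1-deficient mice, ratios of 1.56, 1.18 and 1.39. With the mouse as a block this was called (log2 fold change 0.45, adjusted p = 0.000881), and without the block it was not (0.44, adjusted p = 0.128), except without the LPS-IL-4 library of mouse 2 (0.62, adjusted p = 0.00352) and with no filter on low counts (0.41, adjusted p = 0.0412). The block raised the number of members called in Pdap1-deficient cells from 2 to 4 and of all genes from 1675 to 3854. In the controls Eif4ebp2 gave 0.26 (adjusted p = 0.381), a value that rested on the deep library of control mouse 1 and was -0.0059 without it. Eif4ebp1 gave -0.39 (adjusted p = 0.392) in the controls and -0.82 without that library (adjusted p = 0.000425), the controls 2 and 3 having 0.578 and 0.494 times the level with LPS-BAFF-TGFβ. Ddit4 in the controls was at 28.6, 9.98 and 8.04 CPM with LPS-BAFF-TGFβ against 5.35, 5.58 and 7.97 CPM with LPS-IL-4, and the log2 fold change of 1.35 was not called by edgeR (adjusted p = 0.131), while DESeq2 called it (adjusted p = 0.0128). Without the LPS-BAFF-TGFβ library of control mouse 1 it was 0.53 (adjusted p = 0.0768). Rptor was at 0.877, 0.874 and 0.839 times and Tsc2 at 0.846, 0.909 and 0.880 times its LPS-IL-4 level in the controls, and neither was called (adjusted p = 0.181 and 0.180), though Rptor was without the deep library (-0.26, adjusted p = 0.0416). Mtor stayed uncalled in both genotypes, with log2 fold changes of -0.048 (95% interval -0.23 to 0.13) and 0.12 (-0.10 to 0.34).

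**Figure D4:**
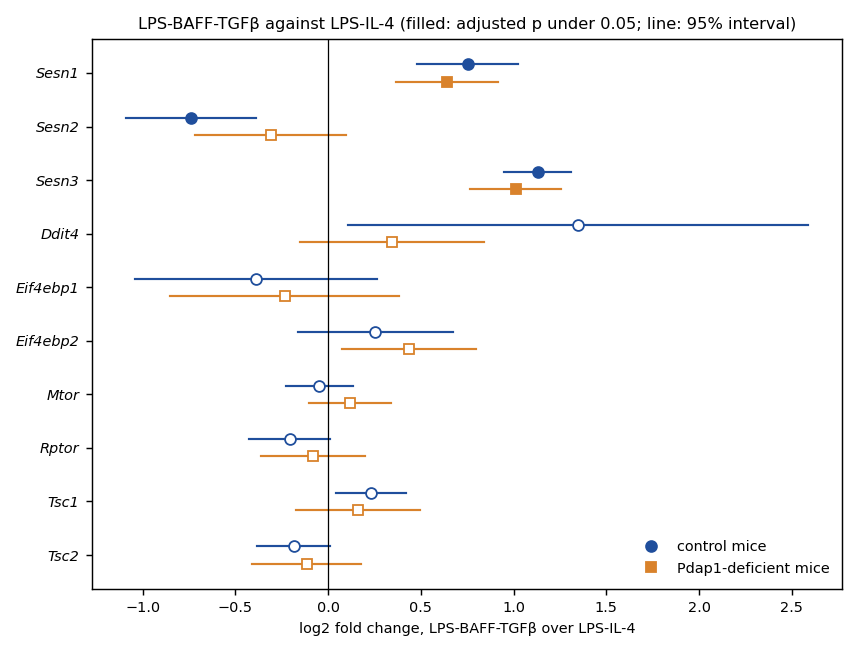
Log2 fold change of LPS-BAFF-TGFβ over LPS-IL-4 (x axis) for the 10 genes (y axis) in control and Pdap1-deficient mice, with 95% intervals from edgeR without pairing and filled symbols at an adjusted p under 0.05. Sesn3 (1.13 and 1.01) and Sesn1 (0.75 and 0.64) lie to the right in both genotypes, and Sesn2 lies to the left, at -0.74 in the controls and -0.31, not called, in Pdap1-deficient mice.

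The rest of the pathway was read from 10 lists written from general knowledge, which hold 83 further genes. These lists were chosen with earlier results of these data known, so their counts are no independent evidence. By genotype, 1 of 74 tested was called with LPS-IL-4 and 2 of 75 with LPS-BAFF-TGFβ, all higher. These shares, 1.35% and 2.67%, stood beside 4.92% and 0.462% of all genes, so the list was under the share of all genes in the first stimulation and over it, with 2 genes, in the second. The gene called in both was Trib3, a pseudokinase that binds Akt, which was at 3.05, 3.51 and 4.64 CPM in LPS-IL-4 controls and at 33.9, 23.9 and 23.6 CPM in Pdap1-deficient cells (log2 fold change 2.85, SE 0.22, adjusted p = 0.000134). With LPS-BAFF-TGFβ Trib3 was at 1.28 ± 0.46 and 20.1 ± 2.3 CPM (3.86, SE 0.27, adjusted p = 0.000231). The other was Lars, the cytosolic leucyl-tRNA synthetase, which also acts as a leucine sensor for the Rag GTPases, at 273 ± 19 and 498 ± 60 CPM with LPS-BAFF-TGFβ (0.87, SE 0.13, adjusted p = 0.0175). No gene of the mTORC1 complex list (6 tested), of TSC and Rheb (5), of the Rag GTPases and Ragulator (12), of GATOR1, GATOR2 and KICSTOR (11), of AMPK and Lkb1 (8 and 9), of PI3K, Akt and Pdk1 (10) or of mTORC1 substrates and cap binding (15) was called by genotype in either stimulation, and none of the mTORC2 list (3 and 4) was. Outside mTORC2, median log2 fold changes of these lists were between -0.17 and 0.11. Of 8 amino acid sensors tested, 1 was called with LPS-IL-4 (Sesn2) and 2 with LPS-BAFF-TGFβ (Sesn2 and Lars), all higher. Their medians were 0.18 and 0.42. In the list of stress brakes, 4 of 9 were called with LPS-IL-4 (Trib3, Sesn2, Ddit4 and Eif4ebp1) and 2 of 8 with LPS-BAFF-TGFβ (Trib3 and Sesn2), all higher. That list holds 6 of the members, which were chosen with results of these data known, so its counts are no independent evidence.

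Between the stimulations, 16 of 75 further genes were called in the controls, 10 higher and 6 lower with LPS-BAFF-TGFβ, and 12 of 76 in Pdap1-deficient cells, 8 higher and 4 lower. These shares, 21.3% and 15.8%, were near those of all genes, 19.3% and 11.5%. Wdr59, a subunit of GATOR2, was lower, from 175 ± 6.8 to 53.3 ± 1.8 CPM in the controls (log2 fold change -1.71, adjusted p = 6.36e-06) and from 165 ± 14 to 50.7 ± 4.4 CPM in Pdap1-deficient cells (-1.70, adjusted p = 2.13e-05). Depdc5, a subunit of GATOR1, was higher (0.57 and 0.59, adjusted p = 0.00187 and 0.00965). Both are parts of the branch on which sestrins act. Of the AMPK subunits, Prkab2 went from 10.4 ± 0.29 to 38.5 ± 4.3 CPM in the controls (1.89, adjusted p = 3.64e-05) and Prkaa2 from 0.509 ± 0.38 to 2.99 ± 0.83 CPM (2.57, adjusted p = 0.00996). Tfeb, the transcription factor of lysosome genes that mTORC1 holds in the cytoplasm, rose by 1.30 and 0.98 on the log2 scale. Larp1, a repressor of ribosomal protein mRNAs downstream of mTORC1, fell by 0.51 and 0.52. Pdcd4, a translation repressor that S6 kinase marks for degradation, was higher by 0.73 and 0.65. In the mTORC2 list Prr5l was called in the controls (3.05, adjusted p = 0.000859 by edgeR). It went from 0.291 ± 0.14 to 2.45 ± 0.10 CPM, so this fold starts near 0. Rictor and Prr5 were called in Pdap1-deficient cells (-0.51 and -0.67, adjusted p = 0.0106 and 0.0374 by edgeR).

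**Figure D5:**
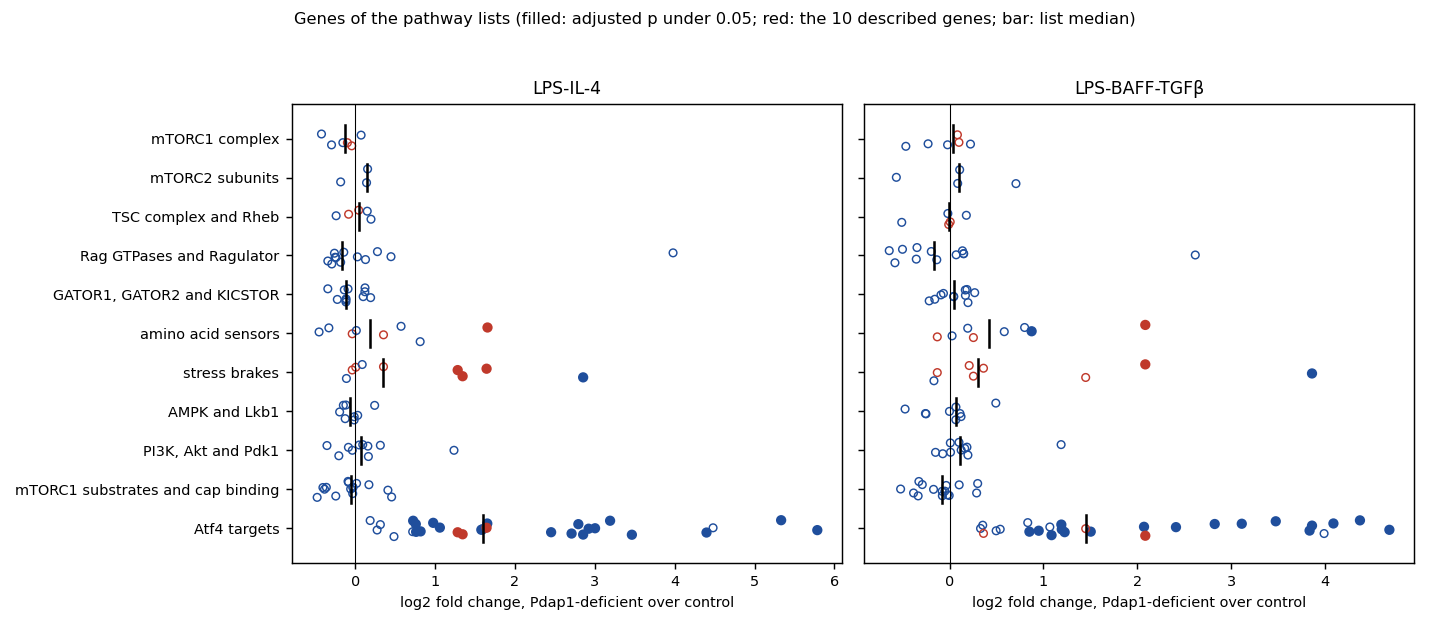
Log2 fold change of Pdap1-deficient over control cells (x axis) for every tested gene of 11 lists (y axis) in LPS-IL-4 (left) and LPS-BAFF-TGFβ (right), with bars at the list medians, members in red and filled symbols at an adjusted p under 0.05. Medians (left, then right) are 0.18 and 0.42 for amino acid sensors, 0.35 and 0.31 for stress brakes and 0.14 and 0.097 for mTORC2. The Atf4 target list has its median at 1.60 (left) and 1.45 (right), and the remaining lists have theirs between -0.17 and 0.11.

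Sesn2, Ddit4 and Eif4ebp1 also stand in a list of 30 Atf4 targets, which was chosen with earlier results of these data known and is no independent evidence of its direction. Atf4 is the transcription factor of the integrated stress response. Of 29 tested 23 were called higher and 0 lower with LPS-IL-4 (median log2 fold change 1.60, all genes 0.021). With LPS-BAFF-TGFβ 18 of 27 tested were called higher and 0 lower (median 1.45, all genes 0.0066). Of all genes tested, 2.79% (LPS-IL-4) and 0.455% (LPS-BAFF-TGFβ) were called higher. Chac1, which degrades glutathione, had log2 fold changes of 3.19 (adjusted p = 1.1e-05) and 4.69 (adjusted p = 1.71e-05), and Gpt2, a mitochondrial alanine transaminase, 2.92 and 3.48. Between the stimulations 13 of 25 tested were called lower with LPS-BAFF-TGFβ in the controls and 1 higher, beside 9.33% and 9.99% of all genes. Cth (-2.09), Asns (-0.89), Slc7a5 (-0.69) and Ppp1r15a (-1.01) had the smallest adjusted p, and Sesn2 was among those called lower. Of 6 plasmablast markers 1 was called by genotype with LPS-IL-4, beside 4.92% of all genes. Among the 6, 4 were fitted higher and 2 lower, with log2 fold changes from -0.76 to 1.82 and a median of 0.21. With LPS-BAFF-TGFβ 0 of 6 were called by edgeR, beside 0.462% of all genes, and the values ran from -1.52 to 0.52. The called gene, Prdm1, the regulator of plasma cell differentiation, was at 18.2, 14.1 and 19.98 CPM in LPS-IL-4 controls and at 50.6, 65.1 and 71.2 CPM in Pdap1-deficient cells (log2 fold change 1.82, adjusted p = 0.000323). The summed plasmablast markers were 630 to 680 and 752 to 900 CPM there and 471 to 531 and 480 to 530 CPM with LPS-BAFF-TGFβ, and their part in the values of the members was not tested.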

How the data were processed

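RNA-seq was analysed from 12 libraries, grouped by the labels and mouse numbers. As deposited by the authors, the values are raw counts per Ensembl gene. The authors trimmed reads with Trim Galore 0.6.1, mapped them to GRCm38 with STAR 2.6 and counted them with HTSeq 0.9.1. The second table, of normalized counts, was not used. The labels also name CH12 as a cell line and a stranded mRNA kit, but the Methods, which were followed here, describe splenocytes taken from mice and a kit for total RNA. The annotation release is not given in the sources used here. Names, positions and exon lengths came from GENCODE M21, which matched all 55536 features.

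Counts were tested with the robust quasi-likelihood F test of edgeR 4.0.16 (R 4.3.3) after filterByExpr and TMM within each comparison, with Benjamini-Hochberg adjustment over all genes tested and a threshold of 0.05. Levels used TMM factors over 12 libraries. Alternatives were DESeq2 1.42.0 (Wald test), its size factors in edgeR, no filter, at least 10 counts in every library, thinning to the smallest library, all 12 libraries in one fit, the replicate block, and each library left out in turn. The scripts were tested on simulated data. By the mouse numbers, both cultures came from the same mouse, so mice pair the libraries in the comparisons of the stimulations and the interaction. The reported fits did not use this pairing, and the replicate block did. Deviations of cultures of 1 mouse from their group means correlated at -0.18 to 0.34 in control and 0.29 to 0.62 in Pdap1-deficient mice. Closest to the library of their own number were 2 of 6 control and 6 of 6 Pdap1-deficient libraries. Libraries of a group were compared pairwise, and none was a copy of another. The median biological coefficient of variation was 17.2% (LPS-IL-4) and 20.9% (LPS-BAFF-TGFβ), which is the spread between mice that limits the precision of each value. The 10 members were named in every comparison, and of each list the called genes with the smallest adjusted p (at most 4). Members and lists were chosen with earlier results of these data known. Some items are not reported here.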

Additional observations from a re-analysis of the deposited data

How the results depend on the processing

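Of 700 values of the 10 members under alternative settings, 649 kept their direction and side of the threshold, 13 passed it where the reported value did not, 9 lost it, and 29 changed sign, none of which was called. Of 1470 values for the gene lists, 158 moved beyond the set limits. The 40 mean levels moved by less than the replicate SD. Depth limits Ddit4 most, with 62 reads in one library. The cause of the changes below was not tested.

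Genes called with LPS-IL-4 by genotype (741) were 1217 with DESeq2 and 1694 with no filter on low counts, and 69 to 1759 with 1 library left out (members 1 to 4). With LPS-BAFF-TGFβ (65) they were 172 with DESeq2, 257 with no filter and 133 with all 12 libraries in one fit, and 19 to 116 with 1 library left out (members 1 to 2). Members called there were 2 with DESeq2 and 2 with the replicate block, Sesn2 and Eif4ebp1 (log2 fold change 1.52, adjusted p = 0.00708). Mouse numbers did not pair the genotypes: deviations of libraries sharing a number correlated at -0.20 to 0.0083 with LPS-IL-4 (0 of 6 libraries closest to their own number) and -0.21 to 0.10 with LPS-BAFF-TGFβ (2 of 6), and the block gave 641 and 48 genes. Between the stimulations, leaving out 1 library gave 1608 to 4858 genes in control mice (2874 with all, members 2 to 5) and 908 to 2235 in Pdap1-deficient mice (1675 with all). In the latter the replicate block gave 3854 genes and 4 members, and in control mice it changed the call of no member. For the interaction, DESeq2 called 6 genes, no filter 1, and leaving out 1 library 0 to 1.

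Changes of sign, on the log2 scale, were small. For Eif4ebp2 by genotype with LPS-IL-4 (0.0062) they were -0.016 with DESeq2, -0.0015 with its size factors and -0.012 with the replicate block. For Tsc2 with LPS-BAFF-TGFβ (0.0072) they were -0.0047 with DESeq2, -0.059 with no filter and -0.0010 with all 12 libraries, and for Tsc1 (-0.0088) 0.068 after thinning. Leaving out 1 library gave ranges across 0 by genotype with LPS-IL-4 for Eif4ebp2 (-0.16 to 0.10), Rptor (-0.11 to 0.0067) and Tsc1 (-0.030 to 0.14), and with LPS-BAFF-TGFβ for Rptor (-0.0076 to 0.15), Tsc1 (-0.084 to 0.11) and Tsc2 (-0.052 to 0.054). Between the stimulations it did so in controls for Eif4ebp2 (-0.0059 to 0.39) and Pdap1 (-0.049 to 0.67) and in Pdap1-deficient mice for Eif4ebp1 (-0.45 to 0.011), Rptor (-0.17 to 0.0027) and Tsc2 (-0.21 to 0.0036), and in the interaction for Eif4ebp1 (-0.076 to 0.58), Tsc1 (-0.18 to 0.048) and Tsc2 (-0.023 to 0.19).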

Other observations

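Further lists hold genes of other programs in which the members are known to take part. Beside their counts by genotype, the shares of all genes called were 4.92% (LPS-IL-4) and 0.462% (LPS-BAFF-TGFβ), and between the stimulations 19.3% were called in the controls. Of 13 FoxO targets tested, 4 were called higher by genotype with LPS-IL-4 and 0 lower, among them Trib2 (log2 fold change 1.47, adjusted p = 0.00613 by edgeR), a pseudokinase, S1pr1 (0.82, adjusted p = 0.0234), the receptor for lymphocyte exit, and Irs2 (1.27, adjusted p = 0.0428), an insulin receptor substrate. With LPS-BAFF-TGFβ 0 of 13 were called by edgeR. The list median was 0.39 and 0.25. Sesn1 and Sesn3 are in this list and were not called by genotype. Between the stimulations 11 of 13 were called in the controls, 7 higher and 4 lower with LPS-BAFF-TGFβ, with Cdkn1b (1.18), a cell cycle inhibitor, and Ccng2 (1.55) higher beside Sesn3.

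Of 16 p53 targets tested, Sesn2 and Trp53inp1 (0.91, adjusted p = 0.0468) were called higher by genotype with LPS-IL-4 and Sesn2 alone with LPS-BAFF-TGFβ, and the list medians were -0.097 and -0.12. Of 14 hypoxia response genes, Vegfa, a vascular growth factor, was higher in both stimulations (2.91 and 5.68, adjusted p = 0.00136 and 0.00326 by edgeR). Its levels were 7.12 ± 0.18 and 54.0 ± 17 CPM with LPS-IL-4, controls first. With LPS-BAFF-TGFβ they were 0.429 ± 0.38 and 24.8 ± 4.5 CPM, so the size of that fold rests on controls near 0. Ddit4 was higher and Ldha, lactate dehydrogenase, lower with LPS-IL-4 (-0.58, adjusted p = 0.0430 by edgeR). Of 7 glucocorticoid response genes, Tsc22d3, an anti-inflammatory regulator, was higher in both (1.07 and 1.39, adjusted p = 0.00497 and 0.0175), beside Ddit4 with LPS-IL-4.

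The genes nearest to Sesn2 over the 12 libraries, by Euclidean distance of centred log2 CPM among 15793 genes, were Slc1a4 (0.827), Pycr1 (0.978), Slc7a3 (0.987), Bcat1 (1.12) and Gm15687 (1.16). For Eif4ebp1 they were Atf4 (0.934), Bcat1 (0.961), Phf10 (1.02), Mib2 (1.05) and Pycr1 (1.12). For Ddit4 the nearest, Lockd, was at 1.22.

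Fnip2, a partner of folliculin in the Rag branch, and Pik3cb, a PI3K catalytic subunit, were picked after their values were seen. Fnip2 was at 0.700, 27.7 and 2.01 CPM in Pdap1-deficient mice 1, 2 and 3 with LPS-IL-4 and at 0, 22.3 and 2.58 CPM with LPS-BAFF-TGFβ, and at 0.494 to 1.58 CPM in the controls. Pik3cb was at 3.42, 11.3 and 4.76 CPM and at 1.94, 10.1 and 4.10 CPM in the same libraries. Neither was called, and mouse 2, the one with the highest myeloid sums, was the highest for both.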
